A study of Mus musculus with 17 samples.

Results

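Pycr1, Aldh18a1, Prodh, Phgdh, Psat1, Shmt2, Asns, Atf4 and Trib3 are genes of proline and serine metabolism and of the cellular response to amino acid shortage. These 9 genes were found by symbol and Entrez number among the 13905 genes kept from the genotype libraries and the 39179 kept from the libraries of an inducible tumour model, and all 9 passed the filter on low values in both. The set was chosen by the expression values of that model, in which Pycr1 was far higher after androgen deprivation, so the values of the 9 genes in that comparison are given as a description without a test, and the question put to them is whether a wider ATF4-type response goes with it. RNA sequencing measured transcripts in frozen prostate tissue or prostate tumour of C57BL/6 mice. The first groups were wild-type prostate at 12 months of age, tumours at about 12 months in which 1 Ctnnb1 allele lacks exon 3 (the Ctnnb1 group), and tumours at about 6 to 8 months that carry a further engineered change beside that allele (combined group), each with 3 libraries. Exon 3 of Ctnnb1 encodes the part of beta-catenin that marks the protein for breakdown, and without it the protein accumulates and keeps Wnt target genes switched on. In the inducible model, a tamoxifen-inducible Cre made the combined changes, and the tumours were taken at about 15 months after mock treatment (2 libraries) or androgen deprivation therapy (ADT, 3 libraries); mock and ADT groups alike carry these alleles. Age and genotype cannot be told apart in the combined group. The labels do not say that each sample came from a separate animal, so p-values measure only the spread between these samples. Genotype libraries carry their labels' numbers (13 to 15 for Ctnnb1, 10 to 12 for the combined group).

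ATF4 is a transcription factor whose protein is made when a kinase such as GCN2, the sensor of uncharged tRNA, phosphorylates eIF2alpha and slows translation in general. It raises transcription of genes for amino acid synthesis, amino acid uptake and tRNA charging, so its activity is usually read from those targets more than from its own transcript. Proline is made from glutamate by the synthase encoded by Aldh18a1 and then by pyrroline-5-carboxylate reductase, of which Pycr1 encodes a mitochondrial form, and proline dehydrogenase, encoded by Prodh, starts its breakdown. Phgdh and Psat1 encode the first enzymes of serine synthesis, the mitochondrial enzyme encoded by Shmt2 passes a carbon of serine to folate, asparagine synthetase is encoded by Asns, and Trib3 encodes a pseudokinase that restrains ATF4 signalling.

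ATF4 binds DNA with a C/EBP partner at a composite element, and its core TGATGNAA was searched on both strands (TTNCATCA on the other) in windows from 250 bases before to 50 after each annotated start of RefSeq (GRCm38.p6). The windows of 3 of the 9 genes held it, Pycr1, Asns and Trib3, against 4.51% of the 27025 genes with a window and 3.97% of all 32851 windows. The upstream 250 bases of Pycr1 (chr11:120643749-120643998, minus strand) and Asns (chr6:7693210-7693459, minus strand) are shown because both hold the core ahead of their start and are followed through the results below, with the match in capitals. Pycr1: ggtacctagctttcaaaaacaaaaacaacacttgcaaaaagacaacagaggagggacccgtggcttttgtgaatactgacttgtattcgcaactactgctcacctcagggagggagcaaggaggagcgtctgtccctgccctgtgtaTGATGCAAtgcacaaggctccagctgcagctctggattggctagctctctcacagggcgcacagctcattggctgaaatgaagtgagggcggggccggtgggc
Asns: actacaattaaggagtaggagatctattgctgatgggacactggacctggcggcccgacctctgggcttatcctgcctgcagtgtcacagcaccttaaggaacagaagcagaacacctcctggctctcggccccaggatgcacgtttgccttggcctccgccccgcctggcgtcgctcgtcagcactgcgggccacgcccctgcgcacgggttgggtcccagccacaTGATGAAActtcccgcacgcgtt The match begins 103 bases before the start in Pycr1 and 23 before it in Asns, and that of Trib3 lies after its start. A match of letters is a description of the sequence and not evidence of binding. Among the gene lists used below, 7 of the 18 ATF4 stress targets with a window held the core, among them Chac1, Atf3 and Pck2, as did 5 of 8 ATF4-linked tRNA synthetase genes (Aars, Gars, Iars, Tars and Yars). None of the 11 further serine and one-carbon genes with a window did.

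The values are gene counts that the authors scaled by library and rounded, so they show relative level and not depth. Within the genotype set their totals lay between 32455483 and 47248750, and within the inducible set between 30591734 and 32791101. The file sets were scaled separately, and levels are compared only within each. The labelled tissue was checked against its markers: 6 prostate luminal genes summed to 483106 to 659426 in wild-type libraries, 55175 to 124267 in Ctnnb1 and 25974 to 69976 in combined tumours. The same sum was 14636 to 19760 with mock treatment and 5622 to 8609 with ADT, where the secretory gene Msmb was listed at 0 in every library. Wild-type libraries also held seminal vesicle markers, summed to 446343 to 4389271, against 184 to 4401 in Ctnnb1 and 39386 to 206322 in combined tumours. Skeletal muscle markers summed to 8604 to 108743, 4 to 7879 and 45 to 893 in the same order. The part of these tissues in the results was not tested. ADT replicate 1 stood apart from the other ADT libraries in fibroblast markers, which summed to 355603 against 70194 and 51331. Its Pdgfra was at 19900 against 856 and 865. Mock replicate 1 was high as well, with a fibroblast sum of 467805 against 87655 in mock replicate 2. Smooth muscle markers went the other way in ADT replicate 1, at 6113 against 15915 and 11106, all below the 28747 and 18202 of the mock libraries. Endothelial markers summed to 7170 to 7467 with ADT against 10065 to 24498 with mock treatment. B and plasma cell markers summed to 701 to 3019 against 6154 to 7930. Macrophage, neutrophil and T cell sums overlapped between the groups. The part of these cells in the results was not tested. All 3 ADT libraries held Alb, an albumin gene of hepatocytes, at 26204 to 501486 against 55 and 385 in mock libraries. The 5 hepatocyte markers listed, Alb among them, summed to 26251, 217459 and 501620 in ADT libraries, against 446 and 124 in mock libraries. ADT replicate 2 thus held others of them beside Alb. Of the 4 markers tested, 2 had log2 changes above 0. Apoa1, another of the 5, was at 0 in each ADT library.

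**Figure D1:**
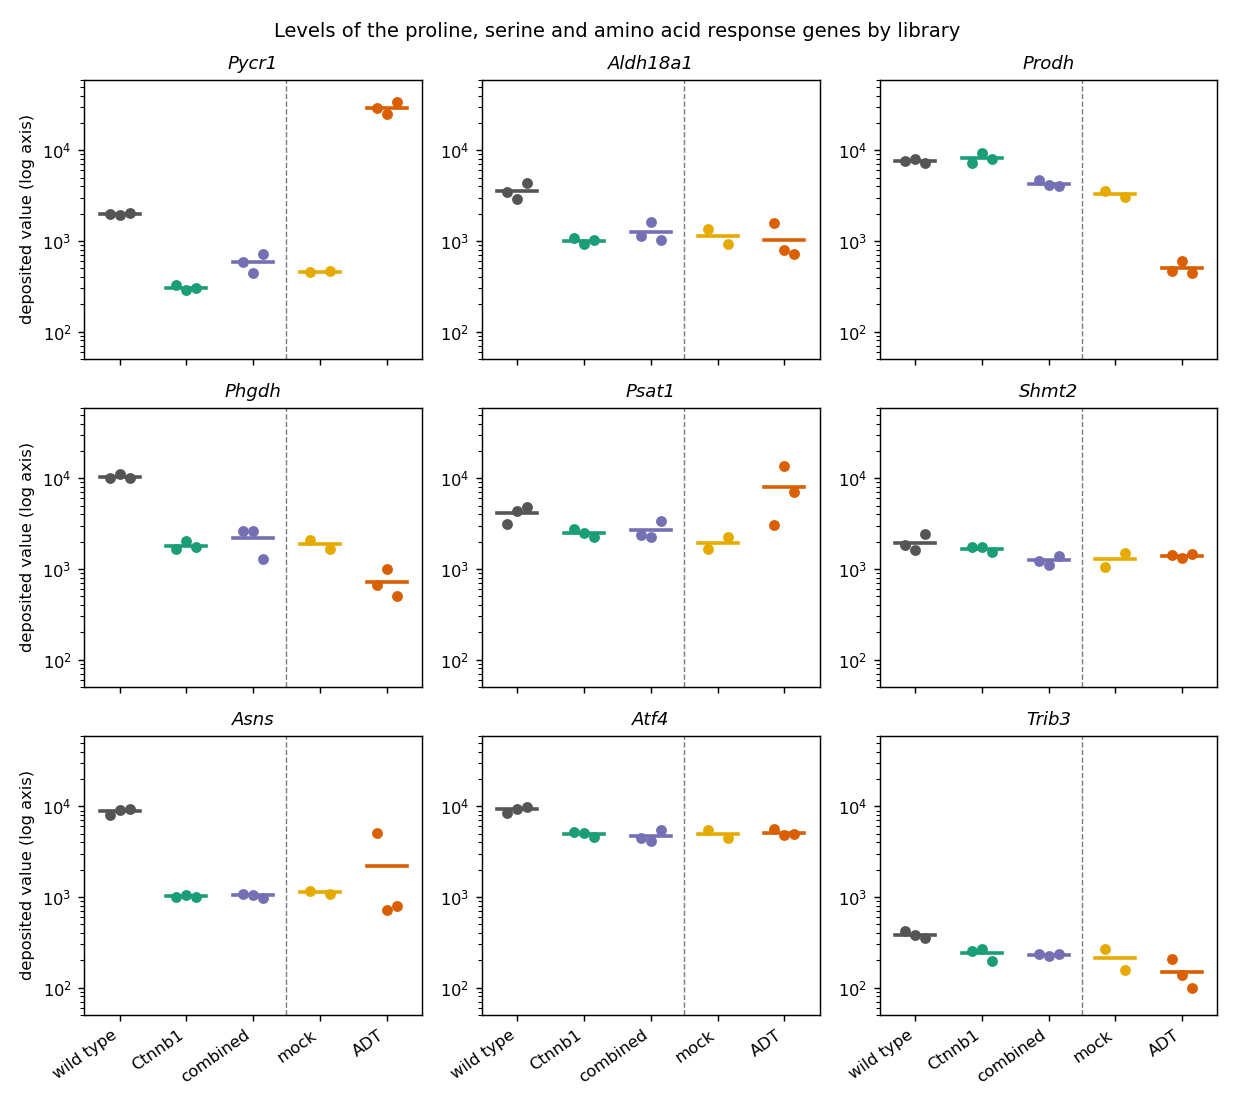
Deposited value of each gene (log axis) in every library, as points by group with the group mean as a bar; the dashed line separates the file sets, which were scaled separately. Pycr1 sits between 24921 and 33971 in ADT libraries against 451 and 466 in mock libraries, and Asns is between 7973 and 9284 in wild-type prostate against at most 1089 in both tumour groups.

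Wild-type prostate and the tumours with stabilized beta-catenin were compared first, since the choice of genes rested on the inducible model. Earlier results of these data were known at that choice, so its independence of these groups is not secured. In the Ctnnb1 group 7 of the 9 genes fell against wild type (limma, adjusted p under 0.05), and Prodh and Shmt2 did not pass the test. Of all genes tested in that comparison, 29.6% were called lower and 58.5% were called in either direction. In the combined group all 9 fell, against 29.5% of all genes called lower and 57.8% called in either direction. The wild-type range lay wholly above 7 of the genes in the Ctnnb1 and 8 in the combined group, against 35.6% and 34% of all genes. Both comparisons share the wild-type libraries and are therefore not independent of each other. When the libraries were set to equal totals, the median log2 change of all genes shifted by 0.49 and 0.52, the share of calls that were higher went from 49.4% to 78.9% in the Ctnnb1 and from 48.9% to 81.9% in the combined comparison, and 5 and 6 of the 9 genes were called lower. Pycr1, Aldh18a1, Phgdh, Asns and Atf4 remained lower under all 16 alternatives tried in each comparison, with the largest adjusted p at 0.0122. Markers of other cells moved with these groups: summed macrophage markers were at 3965 to 4217 in wild-type libraries against 8380 to 17430 in Ctnnb1 and 11030 to 41661 in combined tumours, and neutrophil markers at 58 to 75 against 157 to 510 and 662 to 1772. Fibroblast markers summed to 30165 to 35870, 16596 to 26373 and 35178 to 561354 in the same order. The part of these cells in the results was not tested. In bulk tissue, fewer cells of a type and less RNA per cell cannot be told apart.

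Asns (Entrez 27053, chr6:7675169-7693254), the gene of asparagine synthetase, gave the largest drop of the 9. Wild-type prostate gave values of 7973, 9211 and 9284, Ctnnb1 tumours 992, 1063 and 993, and combined tumours 1089, 1056 and 984. The wild-type libraries all lay far above every tumour library, and the tumours of both groups spanned a narrow common range. The log2 change of Asns was -3.11 in the Ctnnb1 group (SE 0.08, limma adjusted p = 5.95e-07) and -3.08 in the combined group (SE 0.08, limma adjusted p = 6.58e-07), down to 11.5% and 11.8% of the wild-type mean. Summed smooth muscle markers moved the same way, from 128346 to 163578 in wild-type libraries to 1207 to 2625 and 4700 to 16038 in the tumours, and their part in the result was not tested.

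Of the proline genes, Pycr1 (Entrez 209027, chr11:120635712-120643769) had values of 2004, 1916 and 2041 in wild-type prostate, while Ctnnb1 tumours gave 322, 285 and 304 and combined tumours 578, 444 and 712. No tumour library of either group reached the wild-type range. Pycr1 fell, with log2 changes of -2.71 (SE 0.16, limma adjusted p = 1.34e-05) in the first and -1.81 (SE 0.16, limma adjusted p = 5.59e-05) in the combined tumours. Aldh18a1 (Entrez 56454, chr19:40550257-40588463), which encodes the enzyme before it in proline synthesis, had log2 changes of -1.80 (SE 0.19, limma adjusted p = 0.000139) and -1.50 (SE 0.19, limma adjusted p = 0.000319). It was measured at 3468, 2878 and 4313 in wild-type libraries, which lay apart from the 1083, 928 and 1016 of Ctnnb1 tumours and the 1143, 1607 and 1031 of combined tumours.

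Prodh (Entrez 19125, chr16:18060357-18090203), the gene that opens proline breakdown, did not share that pattern in the Ctnnb1 group. Wild-type prostate had 7705, 7969 and 7184, Ctnnb1 tumours had 7226, 9331 and 8095, and combined tumours had 4699, 4132 and 4033. Wild-type and Ctnnb1 libraries overlapped (log2 change 0.10, SE 0.10, limma adjusted p = 0.418), whereas all combined libraries were below wild type. Prodh fell by 0.83 on the log2 scale in the combined group (SE 0.10, limma adjusted p = 0.000299). With equal totals Prodh was called higher in the Ctnnb1 group, with a log2 change of 0.59 (limma adjusted p = 0.00130). The difference between the tumour groups was not tested here. Prodh lies over Dgcr6 on the opposite strand without a shared exon base.

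Both serine synthesis genes of the set fell. Phgdh (Entrez 236539, chr3:98313170-98339990), which encodes the first enzyme of the pathway, reached 10059, 11250 and 10002 in wild-type prostate but 1671, 2010 and 1749 in Ctnnb1 tumours, and combined tumours had 2619, 2595 and 1303. All tumour libraries were below the wild-type range, by a log2 change of -2.53 (SE 0.25, limma adjusted p = 9.58e-05) and -2.33 (SE 0.25, limma adjusted p = 0.000128). Psat1 (Entrez 107272, chr19:15904678-15947337), the gene of the next enzyme, gave 3141, 4404 and 4829 in wild-type prostate, against 2786, 2464 and 2234 for Ctnnb1 tumours and 2349, 2233 and 3394 for combined tumours. Wild-type and Ctnnb1 libraries did not overlap, but combined replicate 12 lay above wild-type replicate 1. Psat1 had log2 changes of -0.71 (SE 0.20, limma adjusted p = 0.0163) and -0.64 (SE 0.20, limma adjusted p = 0.0254), and both calls were lost with equal totals and when single libraries were left out, wild-type replicates 2 and 3 among them (limma adjusted p 0.0555 and 0.0589 for Ctnnb1, 0.0796 and 0.0874 for the combined group).

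Shmt2 (Entrez 108037, chr10:127517123-127522444) had wild-type values of 1816, 1611 and 2438, Ctnnb1 values of 1746, 1734 and 1524 and combined values of 1231, 1106 and 1405. Ctnnb1 libraries overlapped with wild type (log2 change -0.21, SE 0.16, limma adjusted p = 0.275) and combined libraries did not, with a log2 change of -0.63 (SE 0.16, limma adjusted p = 0.00859) that became -0.12 and lost its call with equal totals. The gene shares 32 exon bases with Ndufa4l2 on the other strand, and whether the counting used strand is not given in the sources used here.

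The transcript of Atf4 itself (Entrez 11911, chr15:80255184-80257541) gave 8512, 9432 and 9841 in wild-type prostate, 5169, 5024 and 4547 among Ctnnb1 tumours and 4445, 4105 and 5533 among combined tumours. Both tumour groups lay wholly below the wild-type range, at 53.1% and 50.7% of its mean. The log2 changes of Atf4 were -0.91 (SE 0.12, limma adjusted p = 0.000325) and -0.99 (SE 0.12, limma adjusted p = 0.000219). Trib3 (Entrez 228775, chr2:152337422-152344032), a target of ATF4, had 427, 378 and 351 in wild-type prostate, above the 252, 266 and 197 of Ctnnb1 tumours and the 235, 225 and 234 of combined tumours, again without overlap. Trib3 fell, with log2 changes of -0.70 (SE 0.15, limma adjusted p = 0.00452) and -0.73 (SE 0.15, limma adjusted p = 0.00366), calls that were lost with equal totals. Per kilobase of exon, the wild-type levels came in the order Phgdh 4198 ± 283, Atf4 3928 ± 289, Asns 3226 ± 269, Prodh 977 ± 51.2, Psat1 970 ± 206, Aldh18a1 873 ± 177, Shmt2 629 ± 139, Pycr1 505 ± 16.3 and Trib3 181 ± 18.1 (SD, n = 3). The ranges of Phgdh and Atf4 overlapped, as did those of Prodh, Psat1 and Aldh18a1, and Shmt2 (518 to 784) overlapped with Aldh18a1 (707 to 1059) above it and with Pycr1 (487 to 519) below it.

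The wider set of amino acid response genes was read from lists of pathway genes beyond the 9. In the Ctnnb1 group 39 of the 66 tested genes of these 6 lists were called lower and 10 higher, with a median log2 change of -0.52 against 0.00 over all genes, and in the combined group 38 lower and 8 higher, with a median of -0.42 against -0.01. Of all genes tested, 29.6% were called lower and 28.9% higher in the former comparison and 29.5% and 28.3% in the latter. With equal totals these medians were -0.03 and 0.10, against 0.49 and 0.50 over all genes. Of the 19 tested ATF4 stress targets, 13 fell and 2 rose in the Ctnnb1 group. Chac1, which encodes a glutathione-degrading enzyme, was at 2630, 1689 and 1771 in wild-type prostate, against 57, 34 and 34 for Ctnnb1 tumours and 116, 88 and 145 for combined tumours. Its log2 changes were -5.59 (SE 0.29, limma adjusted p = 9.85e-06) and -4.11 (SE 0.29, limma adjusted p = 2.30e-05), beyond those of every member. Atf5, Eif4ebp1 (a translation repressor), Gpt2 and Pck2 fell as well, whereas Cebpb, the gene of a C/EBP factor, rose by 1.53 (limma adjusted p = 0.000393) and 1.75 (limma adjusted p = 0.000205). In the combined group 10 of the 19 fell and 2 rose, and with equal totals the median of this list there went from -0.35 to 0.16.

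Of the 12 ATF4-linked tRNA synthetase genes, 10 fell in each tumour group, against 29.6% and 29.5% of all genes called lower. Gars was the 1 that rose in the Ctnnb1 group, by 0.71 (SE 0.09, limma adjusted p = 0.000381). Yars, the tyrosine enzyme, gave 4335, 4273 and 4208 in wild-type prostate, 1957, 1945 and 1755 among Ctnnb1 and 1793, 1789 and 1969 among combined tumours, with log2 changes of -1.18 (SE 0.07, limma adjusted p = 1.25e-05) and -1.21 (SE 0.07, limma adjusted p = 1.25e-05). Among 8 other cytosolic tRNA synthetase genes, 3 and 4 fell while 2 and 1 rose, with medians of -0.07 and -0.12 beside -0.76 and -0.80 for the ATF4-linked list. The 5 calls in the Ctnnb1 group became 3 without wild-type replicate 3, Ctnnb1 replicate 14 or Ctnnb1 replicate 15. With equal totals 6 genes of the ATF4-linked list were called lower and 3 higher in each group. Of the other list, 0 were then lower and 5 higher in the Ctnnb1 group, and 1 lower and 4 higher in the combined group. The medians became -0.27 and -0.28 for the ATF4-linked list and 0.42 and 0.39 for the other. The lists were not tested against each other.

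Serine and one-carbon genes beyond the members fell in 7 of 12 cases and rose in 3 in each tumour group. Of all genes, 29.6% were called lower and 28.9% higher in the Ctnnb1 comparison, and 29.5% and 28.3% in the combined one. With equal totals 6 of the 12 were called lower and 6 higher in the Ctnnb1 group, and 4 lower and 4 higher in the combined group. Mthfd2, a mitochondrial folate enzyme, gave 2275, 2805 and 3282 in wild-type prostate, above the 366, 466 and 352 of Ctnnb1 tumours and the 701, 519 and 455 of combined tumours. Its log2 changes were -2.81 (SE 0.20, limma adjusted p = 2.90e-05) and -2.33 (SE 0.20, limma adjusted p = 4.99e-05). Aldh1l2, another mitochondrial folate enzyme, had log2 changes of -4.68 (limma adjusted p = 3.04e-05) and -3.11 (limma adjusted p = 0.000146). Also lower in both groups were Psph, the gene of the last enzyme of serine synthesis (log2 changes -1.13 and -1.04), Cbs (-1.84 and -2.76), Gldc, of glycine cleavage (-4.0 and -2.22), and Amt (-0.26 and -0.46). The cytosolic Shmt1 rose by 0.47 and 0.30, Mthfd1l by 1.24 and 1.27 and Mthfd2l by 0.42 and 0.54. Aldh1l1 fell in the Ctnnb1 group (log2 change -3.62, limma adjusted p = 0.00501), Mthfd1 in the combined group (-0.34, limma adjusted p = 0.0122), and Sfxn1, which carries serine into mitochondria, passed the test in neither.

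In the proline list, Pycr3, which encodes another pyrroline-5-carboxylate reductase and is named Pycrl in the files, had log2 changes of -1.10 (limma adjusted p = 0.00275) and -1.14 (limma adjusted p = 0.00226). Oat, which makes the proline precursor from ornithine, fell too (-0.53 and -0.68), and Aldh4a1, which completes proline breakdown, passed the test in neither group (log2 changes -0.25 and -0.16). Of the 11 amino acid transporter genes, 3 fell and 1 rose in the Ctnnb1 group and 5 fell and 1 rose in the combined group. Of all genes, 29.6% were called lower and 28.9% higher in the former comparison, and 29.5% and 28.3% in the latter. With equal totals the 4 calls in the Ctnnb1 group became 7, of which 5 were higher and 2 lower. Slc7a5 and Slc1a5, importers of large neutral amino acids and of glutamine, fell in both, with log2 changes from -1.31 to -0.99, and the cystine importer Slc7a11 rose by 3.18 (limma adjusted p = 0.000927) and 2.29 (limma adjusted p = 0.00468). Among 8 eIF2alpha kinases and regulators, Eif2ak4, the gene of GCN2, had log2 changes of -0.53 (limma adjusted p = 0.00314) and -0.78 (limma adjusted p = 0.000456) and Eif2ak3, the gene of PERK, of -1.20 and -0.88, while Eif2ak2, the gene of PKR, rose (0.77 and 0.84).

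**Figure D2:**
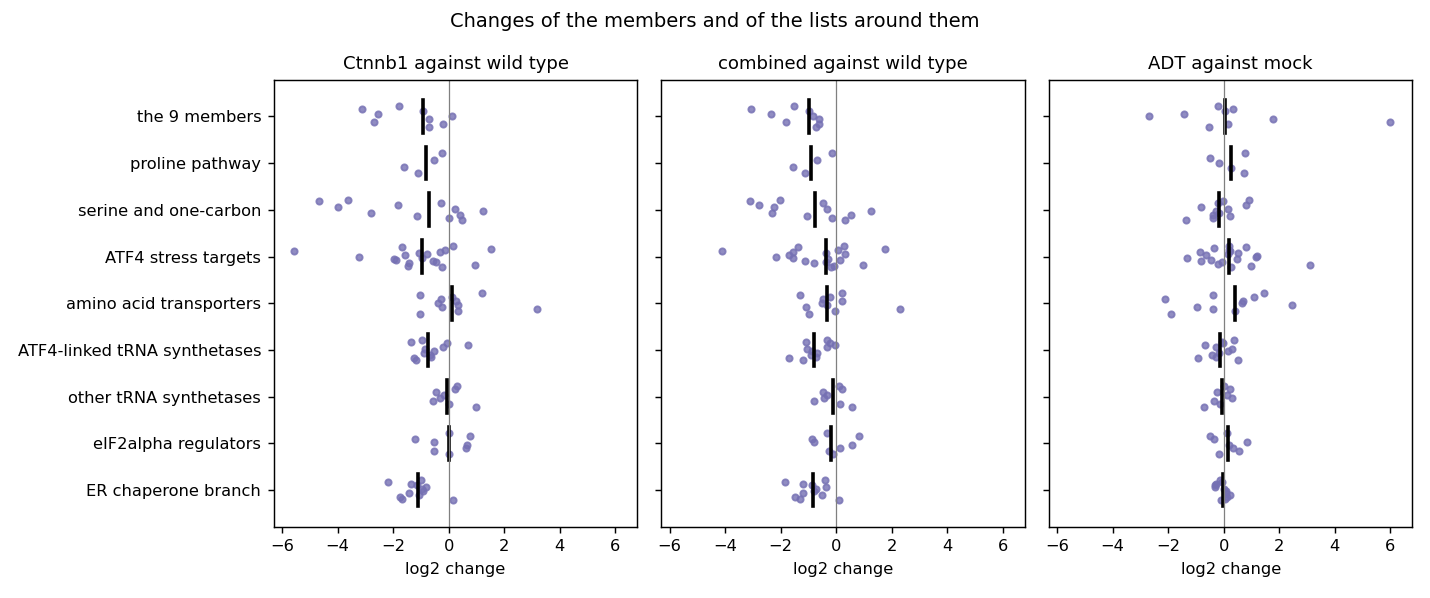
Log2 change of every gene (points) of the 9 members and of 8 fixed gene lists in each comparison, with the list median as a black bar. Most members and most list medians lie left of 0 in both tumour groups, with a median of -0.76 for ATF4-linked tRNA synthetase genes in the Ctnnb1 group, whereas under ADT the members spread from -2.70 to 5.98 and list medians lie between -0.19 and 0.40.

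The inducible tumours were then compared with and without androgen deprivation, within their own file set. Pycr1 was at 451 and 466 in the mock libraries and at 28975, 24921 and 33971 in the ADT libraries. Every ADT library was far above both mock libraries, the means differed 63.9-fold, and the log2 change was 5.98 (SE 0.16). Leaving out any single library gave a log2 change between 5.87 and 6.09. Aldh18a1, a step upstream, was at 1350 and 916 against 1588, 797 and 715, with overlapping groups and a log2 change of -0.20 (SE 0.42). Prodh was at 3530 and 3012 with mock treatment and at 467, 607 and 447 with ADT, all ADT libraries lower, with a log2 change of -2.70 (SE 0.20) and an ADT mean at 15.5% of the mock mean. The gene for the last step of proline synthesis was thus higher, and that for the first step of breakdown lower, in each ADT library.

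Serine genes were at unlike levels. Phgdh was at 2094 and 1656 in mock libraries and at 668, 1009 and 497 in ADT libraries, which were all lower, with a log2 change of -1.42 (SE 0.34). Psat1 was at 1678 and 2234 in mock libraries and at 3059, 13623 and 7110 in ADT libraries, which were all higher but spread over more than 4 times, with a log2 change of 1.78 (SE 0.66). Alb was at 26204, 212562 and 501486 in the same 3 libraries, where the 5 hepatocyte markers together summed to 26251, 217459 and 501620. Apoa1, one of these 5, was at 0 in each. The part of hepatocyte RNA in these values was not tested. Shmt2 was at 1047 and 1517 against 1426, 1333 and 1461, with overlapping groups and a log2 change of 0.16 (SE 0.20).

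The stress genes of the set did not separate the groups. Atf4 was at 5429 and 4493 in mock libraries and at 5568, 4847 and 4900 in ADT libraries, with a log2 change of 0.04 (SE 0.14). Trib3 was at 266 and 158 against 209, 138 and 99, with a log2 change of -0.53 (SE 0.45). Asns was at 1176 and 1092 in mock libraries and at 5025, 723 and 795 in ADT libraries, so ADT replicate 1 lay above both mock libraries and the other ADT libraries below them. The log2 change of Asns was 0.33 (SE 0.94), and it was -0.58 without ADT replicate 1. That library and mock replicate 1, with Asns at 1176, had the higher fibroblast marker sums of their groups. The part of fibroblasts in these values was not tested. Among the 9, then, Pycr1 and Psat1 were higher and Prodh and Phgdh lower without overlap, and the other 5 overlapped, where 16.4% of all 23289 genes tested were higher and 16.8% lower without overlap. Pycr1 was the 1 of the 9 called by limma, where 0.00859% of all genes were called, and nothing is read from that count because Pycr1 led to the choice of the set.

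Genes that the choice did not name give the wider response under ADT. None of the 68 genes of the 6 pathway lists was called by limma, under the reported settings or any of the 14 alternatives, while 25 had an unadjusted p under 0.05. Their log2 changes were above 0 for 34 of the 68, with a median of 0.05 against -0.02 over all genes. Without overlap, 17 of the 68 were higher and 20 lower, against 16.4% and 16.8% of all 23289 genes tested. Each of these shares was larger in the lists than over all genes. So was the share at an unadjusted p under 0.05 (limma), 25 of 68 against 3779 of 23289. All genes tested include genes at low values, and the differences between these shares were not tested. The low number of calls holds for all genes, with 2 called by limma in this comparison and 3779 at an unadjusted p under 0.05, so the absence of calls does not show absence of change. Of 20 ATF4 stress targets 3 were higher and 4 lower without overlap. Stc2, the gene of the secreted protein stanniocalcin, was at 449 and 326 in mock and 835, 3515 and 12062 in ADT libraries (log2 change 3.10, SE 1.16, limma adjusted p = 0.30), and Gdf15, the gene of a stress cytokine, had a log2 change of 1.17 (limma adjusted p = 0.250). Pck2 (-0.82, limma adjusted p = 0.128) and Gpt2 (-1.32, limma adjusted p = 0.186), metabolic targets, were lower in every ADT library, and Chac1 (0.24) and Ddit3 (0.51) overlapped.

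The 12 ATF4-linked tRNA synthetase genes lay on both sides: 4 were higher and 5 lower without overlap, beside the same 16.4% and 16.8% of all genes. Wars, for tryptophan, was at 3162 and 3457 in mock libraries and at 1804, 1803 and 1631 in ADT libraries, with a log2 change of -0.92 (SE 0.12, limma adjusted p = 0.105). Yars, which holds the same promoter core as Pycr1, had a log2 change of 0.50 (SE 0.18, limma adjusted p = 0.284), and Gars, which holds it too, one of -0.66 (SE 0.13, limma adjusted p = 0.151). Transporter genes were similarly divided, 4 higher and 4 lower of 11 without overlap. Slc7a5 was at 4545 and 2813 against 1163, 893 and 878 (log2 change -1.88, SE 0.27, limma adjusted p = 0.112) and Slc7a1, the cationic amino acid importer, had a log2 change of -0.98 (limma adjusted p = 0.187). Slc36a4, a proline and tryptophan transporter, was at 1460 and 1068 against 2843, 2223 and 2951 (log2 change 1.09, SE 0.22, limma adjusted p = 0.152), and the glycine transporter gene Slc6a9 had a log2 change of 2.47 (SE 0.93, limma adjusted p = 0.304). Eif2ak4, the gene of the amino acid sensor GCN2, was at 965 and 901 against 1399, 1831 and 1805, with a log2 change of 0.84 (SE 0.17, limma adjusted p = 0.164).

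Of the further proline genes under ADT, Pycr3 was higher (log2 change 0.74, SE 0.21, limma adjusted p = 0.210) and Oat lower (-0.50, SE 0.16, limma adjusted p = 0.238) in every ADT library, and Aldh4a1 (0.78) overlapped. Prodh2, a liver and kidney relative of Prodh, had at most 1 in each library. Among 12 serine and one-carbon genes, Shmt1, Sfxn1 and Mthfd2l were lower and Aldh1l1 higher without overlap. Shmt1 was at 1087 and 1118 in mock libraries and at 288, 523 and 511 in ADT libraries, with a log2 change of -1.37 (SE 0.32, limma adjusted p = 0.184). Psph (0.24), Mthfd2 (-0.18), Aldh1l2 (-0.04), Mthfd1 (0.16), Mthfd1l (-0.29), Gldc (-0.82), Cbs (0.82) and Amt (-0.20) had overlapping groups.

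Pycr1 and Pycr3 were also set side by side per kilobase of exon (3.935 and 1.339 kb). Pycr1 was at 505 ± 16.3 and Pycr3 at 553 ± 42.8 in wild-type prostate (SD, n = 3), where the highest library of the first, 519, was just under the lowest of the second, 521. In the Ctnnb1 group Pycr1 was at 77.2 ± 4.70 and Pycr3 at 267 ± 78.2, and in the combined group Pycr1 was at 147 ± 34.1 (SD, n = 3 each) and Pycr3 between 232 and 263. Pycr1 was below Pycr3 in every tumour library of both groups. The mock means were 117 ± 2.70 for Pycr1 and 253 ± 48.1 for Pycr3 (SD, n = 2), and the ADT means were 7443 ± 1152 and 422 ± 42.4 (SD, n = 3), so that Pycr1 was the lower of the pair in both mock libraries and the higher in every ADT library.

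**Figure D3:**
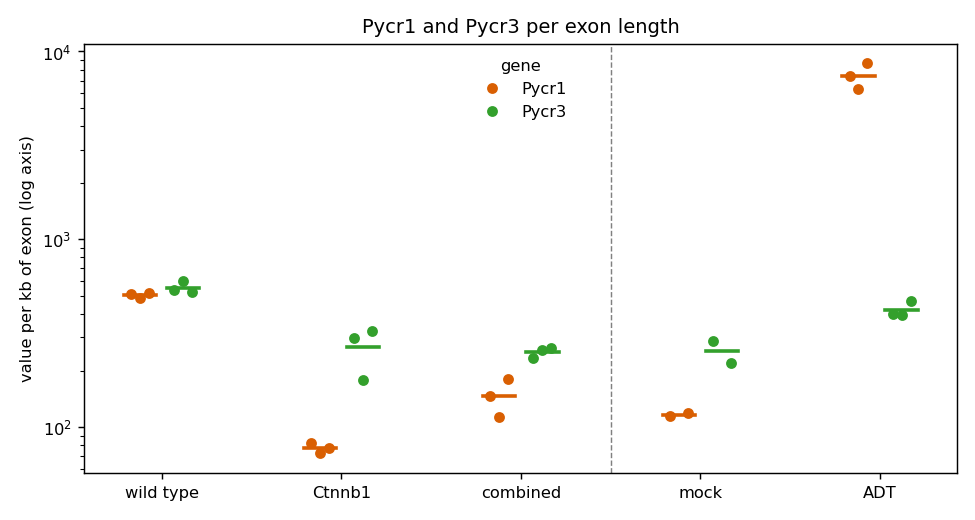
Level per kilobase of exon (log axis) of Pycr1 and Pycr3 in every library, as points with group means as bars; the dashed line separates the file sets. Pycr1 lies below Pycr3 in every tumour library of the Ctnnb1, combined and mock groups, and its mean of 7443 in the ADT group compares with 422 for Pycr3.

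Likeness to Pycr1 was measured as the root mean square difference of centred log2 values. Over the 5 inducible libraries the nearest of 15703 ranked genes were Cdh22 (0.23), Tbx4 (0.33), Ret (0.42), Prrt4 (0.45) and Sdk2 (0.47). Ret, the gene of a receptor tyrosine kinase, was at 284 and 320 in mock and 8686, 11806 and 16482 in ADT libraries, and Tbx4, a T-box transcription factor gene, at 30 and 17 against 1432, 1292 and 1244. In these libraries the members ranked 577 (Psat1), 5333 (Shmt2), 6729 (Atf4), 7509 (Asns), 9958 (Aldh18a1), 11684 (Trib3), 14184 (Phgdh) and 15336 (Prodh). The measure keeps the size of each change, so a gene that rose far less than Pycr1 under ADT could not rank near it. These ranks largely repeat the log2 changes under ADT and are a description only. Over the 9 genotype libraries the nearest of 13070 genes were Lrrc73 (0.25), Col4a3 (0.25), Cachd1 (0.26), Itih5 (0.27) and Akr1b3 (0.27), and the members ranked 145 (Aldh18a1), 172 (Phgdh), 254 (Asns), 872 (Atf4), 1492 (Psat1), 1531 (Trib3), 3601 (Shmt2) and 6303 (Prodh).

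The chromosomal neighbours of each member were also described, and the stretch around Pycr1 was singled out after its values were seen. Of the 20 nearest tested coding genes, 10 on either side, 11 were higher without overlap in the ADT libraries and 0 were lower, with a median log2 change of 0.92. Around the other 8 members, 1 to 7 of 20 were higher and the medians ran from -0.36 to 0.21, and 18.4% of all 17756 coding genes tested were higher without overlap. A run of 11 neighbouring coding genes from Npb to Rac3 (chr11:120608477-120723969, 115 kb) held 10 that were higher in every ADT library, and Myadml2, with values of at most 31, was the exception. Beside Pycr1, the other 10 genes of the run had a median log2 change of 1.45. The run was drawn outward from Pycr1 while the next gene was higher without overlap, with Myadml2 let through. Its count and median therefore follow from how it was drawn and are a description only.

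Mafg, the gene of a small Maf transcription factor that lies next to Pycr1, was at 4942 and 6776 in mock libraries and at 18428, 20650 and 28244 in ADT libraries, with a log2 change of 1.93 (SE 0.25). Notum, which encodes a secreted Wnt inhibitor and is itself a Wnt target, was at 782 and 4099 against 19295, 13766 and 15939, with a log2 change of 3.17 (SE 0.73). Lrrc45 was at 2583 and 4073 against 9052, 16937 and 8602, with a log2 change of 1.76 (SE 0.39). Sirt7, a deacetylase gene (1.05), Pcyt2, of phospholipid synthesis (1.07), Aspscr1 (1.24), Stra13 (0.99) and Rac3 (1.66) were higher too, and Npb (3.03) had values of at most 118. Outside the run, Arhgdia (0.36) and Rfng (0.63) were higher without overlap, and Alyref, Anapc11, Dcxr and Cbr2 overlapped. In the genotype comparisons the run did not move as a unit: Pycr1 fell, Notum had log2 changes of 5.20 (limma adjusted p = 7.39e-05) and 3.83 (limma adjusted p = 0.000291), Mafg of 1.14 (limma adjusted p = 0.000700) and 0.85 (limma adjusted p = 0.00302), and Rac3 of -0.17 and 0.04. The annotated spans of Sirt7 and Mafg overlap on 1 strand and Notum and Aspscr1 have antisense genes, so some of their counts are uncertain.

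**Figure D4:**
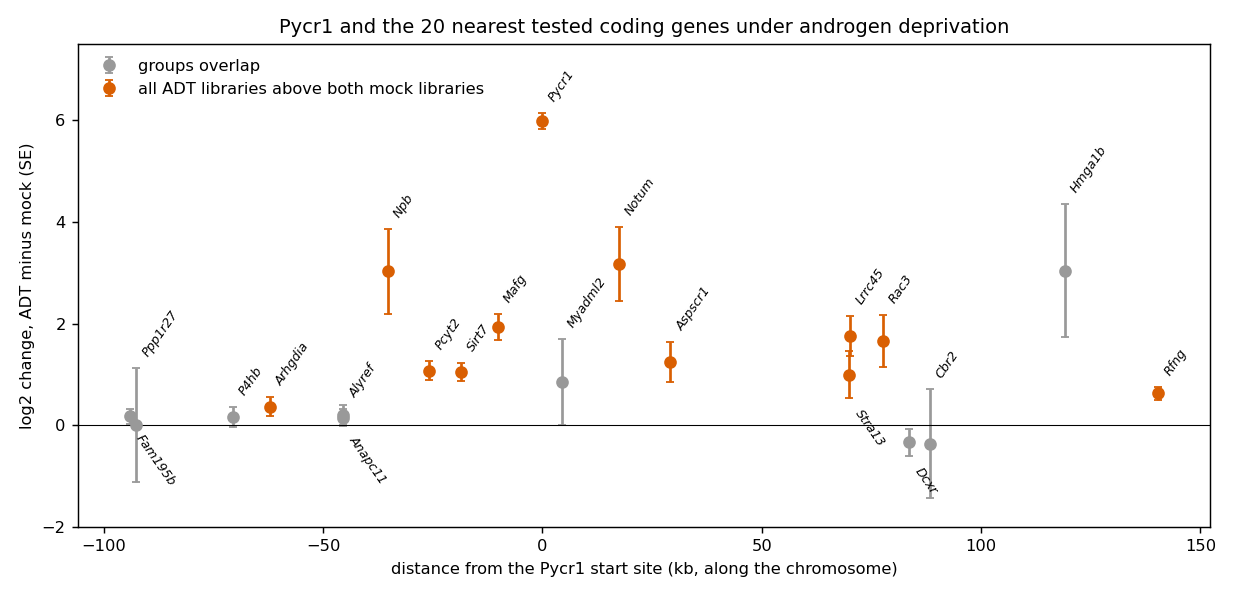
Log2 change between ADT and mock libraries, with SE as bars, of Pycr1 and the 20 nearest tested coding genes, by distance of their start from that of Pycr1 in kilobases. Orange points, with all ADT libraries above both mock libraries, crowd around Pycr1 (5.98), with Mafg at 1.93 and Notum at 3.17, and grey points overlap between the groups.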

How the data were processed

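Paired reads of 90 nt from frozen tissue RNA were sequenced by BGI, per the labels' protocols. Per the submitters' processing notes, whose tools have no stated role, the build was GRCm38.p3 and the tools were TopHat2 2.1.0, HTSeq 0.6.0, DESeq2 1.14.1, R 3.2.3, Bowtie2 2.2.6.0 and FastQC 0.11.4. The deposited values are scores: whole numbers that, as judged from the values, the authors obtained by dividing counts by a size factor per library (median ratios of 0.981 to 1.01 within the genotype set). Raw counts and size factors were not used here, so depth and its precision cannot be stated.

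The genotype libraries list 15195 features. Leaving out 631 without an Entrez number, 270 that share one and 389 repeats kept 13905 genes, whose lowest mean over the libraries was 15.6. A gene could still be low in a single group, as Gldc was with a mean of 8.33 in the Ctnnb1 group. The inducible libraries list 42847 features, of which 3668 repeats were left out. A gene was tested with a value of at least 1 in 3 of 9 genotype or 2 of 5 inducible libraries. log2(value + 1), a scale that understates the change of low genes, was fitted by group with limma 3.58.1 in R 4.3.3 (trend in the prior variance, Benjamini-Hochberg adjustment over all genes tested, called under 0.05, two-sided), the 9 genotype and 5 inducible libraries separately. SE is moderated. The fit was checked on simulated data, with 100 genes changed by 1 and 100 by 2 on the log2 scale. The Ctnnb1 and combined fits called 65 and 67 of the former and 76 and 76 of the latter. The ADT fit called 0 of the former and 9 of the latter, so it misses most changes of these sizes. The design had a test for scaled values, which was used. A further genotype group, scaled apart, entered 1 alternative only, and its results are left out.

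The members and lists were chosen with earlier results of these data known. The text names all members, the proline and serine lists (with 1 gene not reported here), up to 4 genes per other list by smallest p, and the 5 genes nearest to Pycr1. Chac1, Ddit3, Stc2, Gdf15, Gars, Yars, Atf5, Eif4ebp1, Slc6a9, the genes with a motif match and the neighbours of Pycr1 are named in part outside that rule, after their values were seen. Alternatives varied the pseudocount, filter, scaling, prior variance, libraries fitted and, under ADT, a replicate block. Positions and exon lengths came from GENCODE M21 (GRCm38), promoters from RefSeq. Tables and figures used Python 3.11.15, pandas 2.3.3 and matplotlib 3.10.9.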

Additional observations from a re-analysis of the deposited data

How the results depend on the processing

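With 2 and 3 libraries, calls under ADT depended on the settings. Against 2 genes called as reported, 5 were called with a pseudocount of 8, 60 among genes with a mean of at least 50, 48 with equal totals (33 higher, 15 lower), 44 with TMM factors (32 higher, 12 lower), 29 with a robust prior variance and 0 without a trend. Leaving out any single library gave 0 to 0 genes and 0 to 0 members, the lone mock library being assumed to vary like the others. Of the 9 members, 1 was called as reported, 2 with the mean filter, equal totals, TMM factors or the robust prior variance, and 0 without a trend. Pycr1 in this comparison led to the choice of the set, so these member counts show only how calls vary with the settings. Replicate numbers are shared by mock and ADT libraries, but the labels name no shared animal. Deviations of same-numbered libraries correlated at 0.27 and 0.15 across 14833 genes, which with 2 pairs does not show pairing, and the fit with a replicate block called 0 genes and 0 members (3206 genes at an unadjusted p under 0.05). The log2 change of Shmt2 under ADT was -0.11 without mock replicate 1 and 0.42 without mock replicate 2; those of Aldh18a1, Asns and Atf4 changed sign without some libraries (-0.56 to 0.08, -0.58 to 0.82 and -0.09 to 0.18). Shmt2 in the Ctnnb1 group went from -0.21 to 0.28 with equal totals, without a call in either case. The cause of these shifts was not tested. Without single libraries, 6 to 7 members were called in the Ctnnb1 and 8 to 9 in the combined comparison, out of 6737 to 7373 and 6697 to 8175 genes. The combined Psat1 call was also lost without combined replicates 10 and 11 (limma adjusted p 0.0769 and 0.0796) and in the fit of 6 libraries (0.0508), and the Ctnnb1 call without Ctnnb1 replicate 15 (0.0559).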

Other observations

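Chaperone genes of the endoplasmic reticulum, whose stress also reaches ATF4 through PERK, were lower in the tumours. Of 12 such genes, 11 fell in the Ctnnb1 group and 7 in the combined group (limma), with median log2 changes of -1.11 and -0.85, and 0 rose. The shares of all genes called lower were 29.6% and 29.5%. Creld2 gave 10539, 9922 and 4711 in wild-type prostate, above the 1969, 2046 and 1267 of Ctnnb1 tumours and the 2658, 1969 and 2112 of combined tumours, with log2 changes of -2.20 (SE 0.32, limma adjusted p = 0.000621) and -1.83 (SE 0.32, limma adjusted p = 0.00155). With equal totals 8 and 6 of the 12 were called lower and 1 higher in each. Under ADT none of the 12 was called by limma or had an unadjusted p under 0.05, and their log2 changes lay between -0.32 and 0.22.

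Cell cycle genes moved the other way from the members in the tumours. All 12 of the list rose in both groups, with medians of 2.70 and 3.42, against 28.9% and 28.3% of all genes called higher. Mki67 was at 328, 230 and 122 in wild-type prostate and at 2345, 1912 and 2560 in the Ctnnb1 group (log2 change 3.42, SE 0.33, limma adjusted p = 9.30e-05). In the inducible model it was at 3007 and 3059 in mock and at 6436, 5847 and 2257 in ADT libraries, which overlapped.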
